A study of Homo sapiens with 12 samples.

Results

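The 41 genes described here code for proteins that copy DNA or make its building blocks, and they were chosen by name from a table of 35741 genes. They cover 7 roles. Origin licensing takes in ORC1, ORC6, CDC6, CDT1 and MCM2 to MCM7, and helicase activation takes in CDC45, GINS1 to GINS4 and MCM10. The polymerases and primase are POLA1, POLA2, PRIM1, POLD1, POLE and POLE2. The clamp, its loader and the lagging strand are served by PCNA, RFC2 to RFC5, FEN1, LIG1 and RPA2, and fork protection by CLSPN and TIPIN. Nucleotide synthesis is represented by RRM1, RRM2, TYMS and TK1. The last role joins the regulators of the step into S phase, CCNE1, CCNE2, E2F1 and E2F2, with UHRF1. Every one of the 41 names matched 1 row of the table, and all 41 passed the filter on low counts, which left 15715 genes for testing.

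The cells were U87, an established human glioblastoma line, and the measurement was mRNA sequencing of 12 libraries, 3 in each of 4 groups. The PNA-10b+21 cells received sgPNA-10b and sgPNA-21 at 150 nM each, the PNA-21 cells sgPNA-21 at 150 nM and the PNA-10b cells sgPNA-10b at 150 nM, all for 72 h in bioadhesive nanoparticles, and the control cells were untreated. All groups were grown in 24-well plates from 50000 cells a well. No time is given for the control cells, so whether they were in culture as long as the treated cells is not known. A peptide nucleic acid, or PNA, carries nucleobases on a backbone like that of a peptide, and each anti-seed PNA was built against the seed of 1 microRNA, miR-10b or miR-21. The combined arm carried both doses, so an added sgPNA and a larger total dose cannot be told apart where it is compared with a single arm. The doses given are those of the sgPNAs and not of the carrier. No group given empty nanoparticles or a PNA without a target is among the labels. The carrier and the sgPNAs therefore cannot be told apart in the comparisons against control. Whether replicates came from separate cultures is not stated, so p-values measure only the spread between these libraries.

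A human cell licenses its origins in G1, when the origin recognition complex, CDC6 and CDT1 load the MCM2 to MCM7 ring onto DNA. At the start of S phase, CDC45 and the GINS complex join the ring to form the active helicase, and DNA polymerases, a sliding clamp and its loader follow the fork. Most of these genes are transcribed under E2F factors as cells pass from G1 into S phase, so that their mRNA is commonly read as a sign of cycling cells. U87 cells carry a deletion of CDKN2A and CDKN2B, whose products restrain that step.

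Levels are given in CPM, counts scaled to the library's total after TMM adjustment between libraries. A gene is said to rise or fall where its adjusted p was under 0.05 in edgeR's quasi-likelihood test with Benjamini-Hochberg adjustment over all 15715 genes. Changes are log2 differences with their standard error (SE), with n = 3 libraries a group. Total counts per library ran from 12846676 to 18305820, and single libraries held 78 to 6106 counts for a replication gene. The markers of the line matched its label in part. CDKN2A and CDKN2B had 0 to 2 and 0 to 1 counts a library. Among 7 glial and glioma markers, VIM stood at 1543 to 1975 CPM and CD44 at 1280 to 1462 CPM. GFAP, OLIG2 and NES were at or under 16.5 CPM, and S100B and SOX2 at or near 0. The 3 neuronal markers summed to 64.0 to 71.8 CPM in PNA-10b+21, 69.8 to 78.3 in PNA-21, 77.2 to 83.7 in PNA-10b and 80.6 to 90.1 in control, nearly all of it SNAP25, with RBFOX3 at or under 0.625 CPM. The glial and glioma markers summed to 2949 to 3132 CPM in PNA-10b+21, 2847 to 3308 in PNA-21, 3243 to 3416 in PNA-10b and 3187 to 3441 in control. Both sums were lower in PNA-10b+21 than in control with no overlap, as was the neuronal sum in PNA-21, and their part in the results was not tested. Markers of oligodendrocytes, endothelium, blood cells and epithelium each summed to at most 5.57 CPM in any library. The table holds no row for MIR21 and 0 to 7 counts for MIR10B, and mature microRNAs were not measured.

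Replication genes rose in every treated group, nearly all of them in PNA-10b+21 and most in PNA-21, but few in PNA-10b. In PNA-10b+21 against control, 39 of the 41 rose and none fell, with a median log2 change of 0.36, or 1.28-fold, and a range of 0.06 to 0.61. In PNA-21, 35 rose and none fell, with a median of 0.30, or 1.23-fold, and a range of 0.00 to 0.67. In PNA-10b, 7 rose and none fell, with a median of 0.18, or 1.13-fold, and a range of -0.05 to 0.36. Over all genes tested, 13.6% rose in PNA-10b+21, 15.2% with PNA-21 and 2.75% with PNA-10b, and the median change was -0.00 in PNA-10b+21, -0.01 with PNA-21 and -0.00 with PNA-10b. In bulk libraries, a larger share of cells in S phase and more of each mRNA per cell cannot be told apart. The 3 comparisons share the same 3 control libraries. Without control replicate 1, control replicate 3 or PNA-10b replicate 2, the count in PNA-10b was 2, 1 and 1.

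Library by library, 38 of the 41 had all 3 PNA-10b+21 libraries above all 3 controls, where 20.3% of all genes tested did so. In PNA-21 there were 37, against 21.5% of all genes, and in PNA-10b 25, against 11.0%. The average of the 41 genes, as log2 CPM minus the control mean, was 0.45, 0.36 and 0.26 in the PNA-10b+21 libraries, 0.37, 0.30 and 0.25 in PNA-21, 0.17, 0.21 and 0.13 in PNA-10b, and -0.01, 0.06 and -0.05 in control. All 9 treated libraries thus lay above all 3 controls, and each PNA-10b+21 and PNA-21 library lay above each PNA-10b library. Summed over the 41 genes, the level was 3508 ± 202 CPM in PNA-10b+21, 3376 ± 143 CPM in PNA-21, 3086 ± 118 CPM in PNA-10b and 2733 ± 91.5 CPM in control (SD, n = 3 each).

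**Figure D1:**
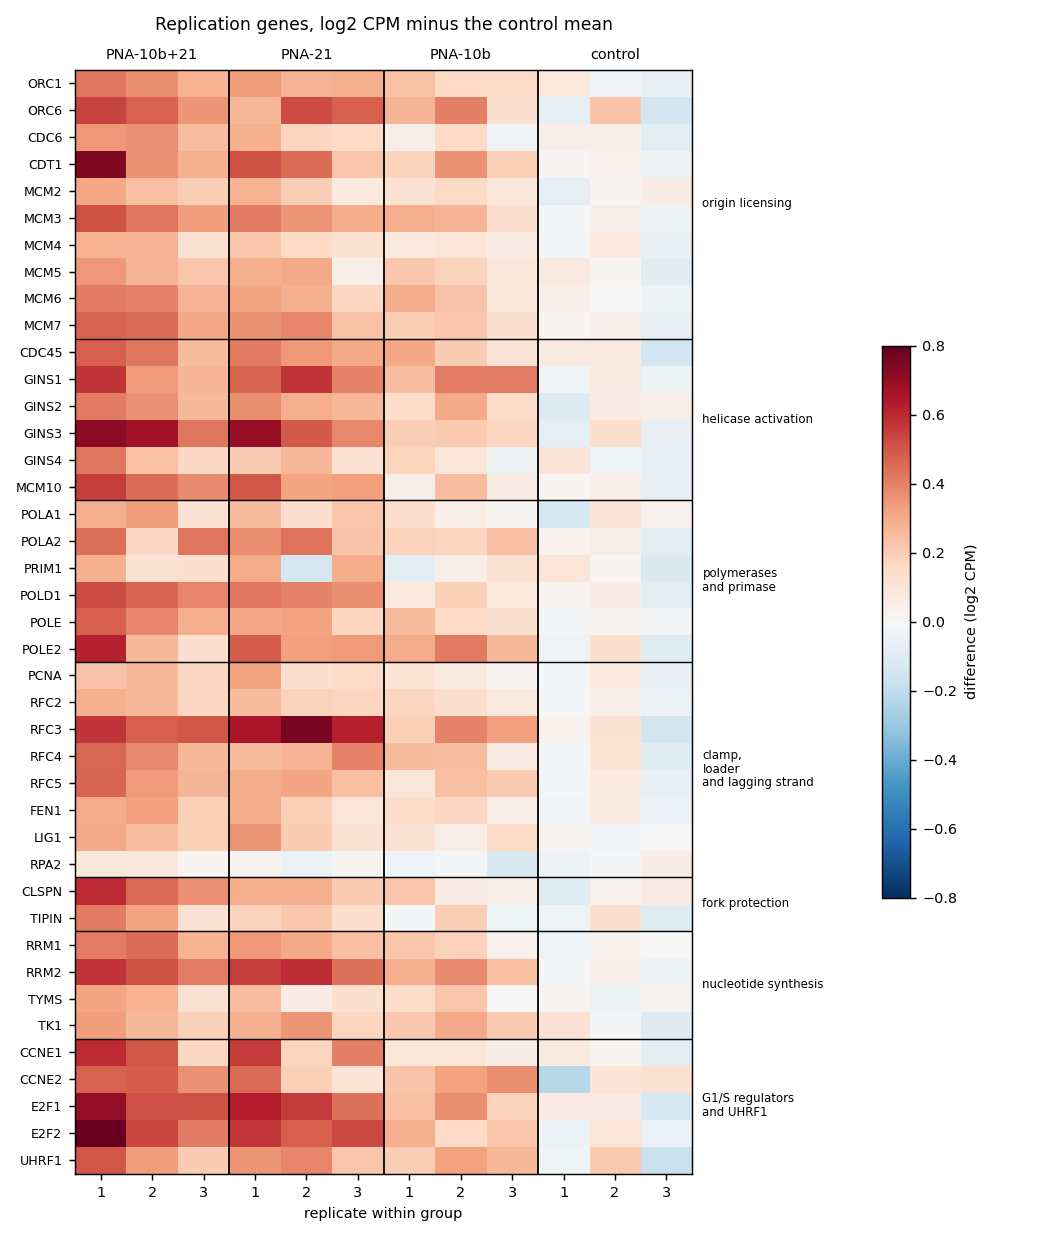
Difference of each replication gene from its control mean in log2 CPM (colour) for the 12 libraries (columns, by group and replicate) and the 41 genes (rows, by role). Red marks a higher and blue a lower level than the control mean; the rows of RPA2 and PRIM1 stay palest in the treated libraries, and GINS3, RFC3, E2F1 and E2F2 are darkest.

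Groups of genes by call showed that 7 rose in all 3 comparisons against control, MCM3, MCM6, GINS1, RFC3, RRM2, TK1 and E2F1. A further 28 rose in PNA-21 and in PNA-10b+21. GINS4, TIPIN, TYMS and CCNE2 passed in PNA-10b+21 alone, and PRIM1 and RPA2 in none. These calls do not show that a gene responded in one group and not in another; the tests between treatments are given further on.

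Promoters are shown for 4 genes whose changes recur in the results: RFC3, the clamp-loader gene with the largest change in PNA-21; E2F1, a transcription factor of the step into S phase; MCM6, a subunit of the ring; and RRM2, a nucleotide enzyme. The sequences are RefSeq's (GRCh38.p14), 250 bases up to the gene's start, each 5′ to 3′ on the gene's strand. They lie at chr13:33817899-33818148 (plus strand), chr20:33686386-33686635 (minus), chr2:135876444-135876693 (minus) and chr2:10122489-10122738 (plus). Capitals mark an E2F word, that is TTTCCCGC, TTTGGCGC, TTTCGCGC or TTTGCCGC on either strand.
RFC3: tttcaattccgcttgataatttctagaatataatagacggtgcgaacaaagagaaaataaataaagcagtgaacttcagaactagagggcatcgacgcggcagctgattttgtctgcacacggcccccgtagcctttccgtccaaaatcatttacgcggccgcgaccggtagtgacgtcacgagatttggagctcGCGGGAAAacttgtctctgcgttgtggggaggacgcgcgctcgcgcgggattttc
E2F1: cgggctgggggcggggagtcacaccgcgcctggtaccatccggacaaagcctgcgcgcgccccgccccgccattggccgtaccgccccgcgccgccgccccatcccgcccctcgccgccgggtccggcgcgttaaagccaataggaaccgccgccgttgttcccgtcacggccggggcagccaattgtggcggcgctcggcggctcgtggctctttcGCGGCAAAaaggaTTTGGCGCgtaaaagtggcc
MCM6: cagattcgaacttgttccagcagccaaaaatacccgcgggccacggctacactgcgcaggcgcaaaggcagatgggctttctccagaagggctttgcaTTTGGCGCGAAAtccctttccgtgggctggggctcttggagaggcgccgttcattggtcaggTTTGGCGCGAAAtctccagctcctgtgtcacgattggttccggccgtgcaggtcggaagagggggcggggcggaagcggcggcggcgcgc
RRM2: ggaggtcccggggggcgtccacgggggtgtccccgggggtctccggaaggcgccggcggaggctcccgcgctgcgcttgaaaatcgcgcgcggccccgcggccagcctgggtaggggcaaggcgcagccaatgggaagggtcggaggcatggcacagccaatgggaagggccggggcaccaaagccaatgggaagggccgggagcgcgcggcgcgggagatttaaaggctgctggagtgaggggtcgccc
Counted from the start, the word of RFC3 begins at -55 and those of E2F1 at -33 and -20. MCM6 holds the words at -152 and -148 and at -90 and -86, each pair sharing 4 bases. RRM2 holds none in the window shown, and bases before its GENCODE start were not searched.

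RefSeq's table matched 36 of the 41 by symbol, not MCM4, MCM5, GINS4, RPA2 and CCNE2. In windows of 250 bases before to 50 after the start, 21 of the 36 (58.3%) held an E2F word, against 546 of 10406 tested genes (5.25%) and 908 of 27305 promoters in all (3.33%). The CHR word of G2 and M phase genes, TTTGAA or TTCGAA, was in 5.56% of the 36 and 11.5% of tested genes. CCAAT was in 58.3% and 36.4%, and the SP1 word GGGCGG in 72.2% and 68.5%, each on either strand. The median GC content was 66.7% for the replication genes and 65.0% for tested genes. The word did not separate the genes by size of change: the median log2 change in PNA-10b+21 was 0.36 for the 21 with it and 0.37 for the 15 without, in PNA-21 0.31 and 0.30, and in PNA-10b 0.20 and 0.15. A match is a description of letters and not of binding.

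All 10 origin licensing genes rose in PNA-10b+21 (median log2 change 0.36, from 0.23 for MCM4 to 0.48 for CDT1). All 10 also rose with PNA-21 (median 0.28, from 0.17 for MCM4 to 0.41 for ORC6), and MCM3 and MCM6 alone rose with PNA-10b (median 0.18). MCM3 (ENSG00000112118, chr6:52264009-52284881, minus strand) codes for a subunit of the ring and had 305, 288 and 270.0 CPM in PNA-10b+21, 285, 273 and 262 CPM in PNA-21, 261, 259 and 235 CPM in PNA-10b and 213, 221 and 208 CPM in control. No MCM3 library of a treated group fell below a control library. Its log2 change was 0.43 ± 0.06 in PNA-10b+21 (adjusted p = 9.41e-06), 0.35 ± 0.06 with PNA-21 (8.03e-05) and 0.23 ± 0.06 with PNA-10b (0.014). The call in PNA-10b was lost without control replicate 1 or 3 or PNA-10b replicate 1 or 2.

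ORC6, a subunit of the origin recognition complex, had 38.4, 36.7 and 33.7 CPM in PNA-10b+21, 31.7, 37.97 and 36.8 CPM in PNA-21, 31.8, 34.9 and 28.9 CPM in PNA-10b and 24.9, 30.9 and 23.7 CPM in control. Control replicate 2 stood apart within its group and overlapped the PNA-10b libraries, and it lay under every PNA-21 and PNA-10b+21 library. The change was 0.44 ± 0.10 in PNA-10b+21 (adjusted p = 0.00157), 0.41 ± 0.10 with PNA-21 (0.00276) and 0.26 ± 0.10 with PNA-10b (0.125, not passed). ORC6 passed in PNA-10b without control replicate 2. MCM4, another subunit of the ring, changed least of the licensing genes in PNA-10b+21 and PNA-21, with 234, 234 and 211 CPM in PNA-10b+21, 226, 216 and 210.0 CPM in PNA-21, 204, 207 and 202 CPM in PNA-10b and 191, 204 and 185 CPM in control. PNA-10b overlapped control at MCM4, and the other 2 groups did not. Its change was 0.23 ± 0.05 in PNA-10b+21 (0.00297), 0.17 ± 0.05 with PNA-21 (0.0207) and 0.08 ± 0.05 with PNA-10b (0.423, not passed), and the call in PNA-21 was lost without control replicate 1 or 3 or PNA-21 replicate 1.

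The remaining licensing genes lay between these. CDT1, the loading factor that geminin blocks, had the largest change of the 10 in PNA-10b+21, at 0.48 ± 0.10, with 45.3, 34.6 and 32.8 CPM in PNA-10b+21 against 27.1, 27.5 and 26.2 CPM in control. The first PNA-10b+21 library was far above the other two, and all 3 were above control. CDC6, which loads the ring with CDT1, was 0.32 ± 0.06 in PNA-10b+21, 0.20 ± 0.06 with PNA-21 and 0.06 ± 0.06 with PNA-10b. ORC1, the subunit that is made anew each cycle, was 0.36 ± 0.08 in PNA-10b+21, 0.30 ± 0.08 with PNA-21 and 0.18 ± 0.08 with PNA-10b. The ring subunits are present in equal number in the complex, yet their changes in PNA-10b+21 ran over a range: MCM2 0.25 ± 0.06, MCM4 0.23 ± 0.05, MCM5 0.28 ± 0.07, MCM6 0.36 ± 0.06, MCM7 0.41 ± 0.06 and MCM3 0.43 ± 0.06. MCM6, whose promoter holds the 4 words shown above, had 249, 245 and 225 CPM in PNA-10b+21, 231, 227 and 209 CPM in PNA-21, 228, 218 and 198 CPM in PNA-10b and 191, 187 and 181 CPM in control. All 9 treated libraries were above the controls at MCM6, and it rose in PNA-10b as well, by 0.21 ± 0.06 (adjusted p = 0.0371). That call was lost without any 1 of the 3 control libraries and without PNA-10b replicate 1 or 2 (adjusted p 0.0586 to 0.163). MCM7, on the same scale, was 0.18 ± 0.06 in PNA-10b (adjusted p = 0.0556, not passed). It passed there with DESeq2, with no filter on low counts, with only the groups compared and without replicate 3 of PNA-10b+21, PNA-21 or PNA-10b (adjusted p 0.0154 to 0.0483). In PNA-21, the calls of CDC6, MCM2 and MCM5 were lost without PNA-21 replicate 1 and without control replicate 3 (CDC6 and MCM5) or 1 (MCM2), and that of MCM5 also without PNA-21 replicate 2. MCM7 shares 392 exon bases with AP4M1 on the other strand, and whether counting used strand is not given in the sources used here.

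**Figure D2:**
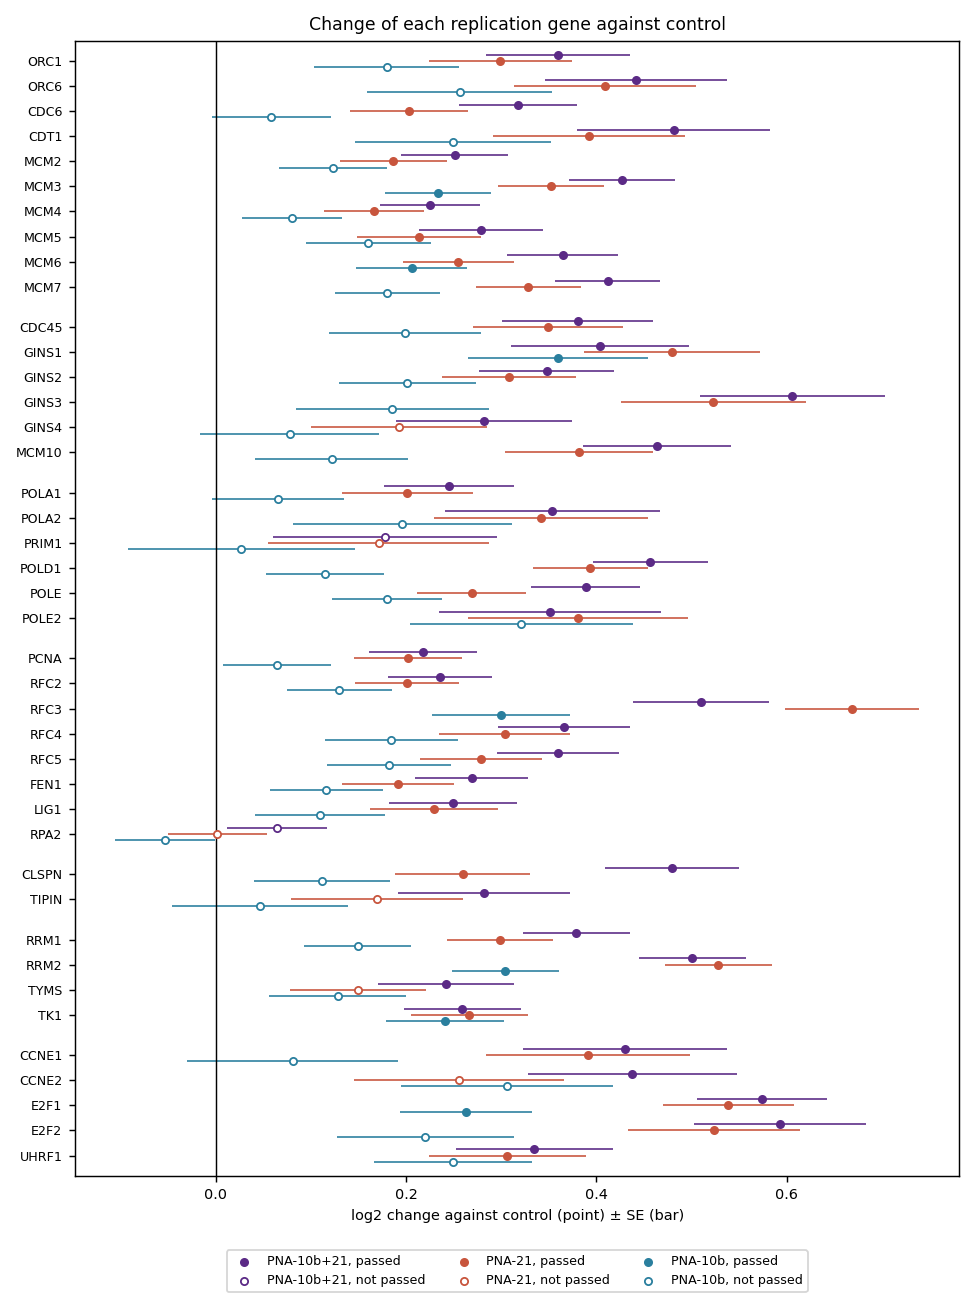
Log2 change against control (points) with its SE (bars) for each of the 41 genes, from top to bottom by role, in PNA-10b+21, PNA-21 and PNA-10b; filled points passed at adjusted p under 0.05. Filled points number 39 in PNA-10b+21, 35 with PNA-21 and 7 with PNA-10b, and RPA2 and PRIM1 have open points in all 3.

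Helicase activation genes rose in 6 of 6 cases in PNA-10b+21 (median 0.39), in 5 of 6 with PNA-21 (median 0.37) and in 1 of 6 with PNA-10b (median 0.19). GINS3, a subunit of the GINS complex (ENSG00000181938, chr16:58295080-58406144, plus strand), had 23.7, 23.01 and 19.4 CPM in PNA-10b+21, 23.4, 20.3 and 18.8 CPM in PNA-21, 16.5, 16.6 and 16.2 CPM in PNA-10b and 13.7, 15.9 and 13.7 CPM in control. The PNA-21 and PNA-10b+21 libraries all lay above the PNA-10b libraries, which in turn lay above control. Its change was 0.61 ± 0.10 in PNA-10b+21 (adjusted p = 9.64e-05), the largest of the 41 in that comparison, 0.52 ± 0.10 with PNA-21 (0.000432) and 0.19 ± 0.10 with PNA-10b (0.313, not passed).

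GINS1, of the same complex, had 19.4, 16.5 and 15.8 CPM in PNA-10b+21, 18.1, 19.5 and 17.2 CPM in PNA-21, 15.5, 17.3 and 17.3 CPM in PNA-10b and 12.7, 13.7 and 12.7 CPM in control. All 9 treated libraries were above the controls, and the treated groups overlapped each other. The change was 0.40 ± 0.09 in PNA-10b+21 (adjusted p = 0.0028), 0.48 ± 0.09 with PNA-21 (0.00059) and 0.36 ± 0.09 with PNA-10b (0.0245), the last lost without control replicate 1 or 3 or PNA-10b replicate 2 or 3. GINS4 changed least of the complex, with 18.6, 16.3 and 15.5 CPM in PNA-10b+21, 15.9, 16.6 and 15.00 CPM in PNA-21, 15.7, 14.8 and 13.4 CPM in PNA-10b and 14.8, 13.5 and 13.2 CPM in control. Control replicate 1 overlapped PNA-10b but not the other groups. Its change was 0.28 ± 0.09 in PNA-10b+21 (0.027), 0.19 ± 0.09 with PNA-21 (0.125, not passed) and 0.08 ± 0.09 with PNA-10b (0.711, not passed). The GINS4 call was lost with DESeq2 and without control replicate 2 or 3 or PNA-10b+21 replicate 1. GINS2, the fourth subunit, was 0.35 ± 0.07 in PNA-10b+21, 0.31 ± 0.07 with PNA-21 and 0.20 ± 0.07 with PNA-10b, and passed in the first 2. CDC45, which joins GINS on the ring, was 0.38 ± 0.08 in PNA-10b+21, 0.35 ± 0.08 with PNA-21 and 0.20 ± 0.08 with PNA-10b with the same calls. MCM10, needed to set the helicase going, was 0.46 ± 0.08 in PNA-10b+21, 0.38 ± 0.08 with PNA-21 and 0.12 ± 0.08 with PNA-10b, again with the same calls.

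Of the 6 polymerase and primase genes, 5 rose in PNA-10b+21 (median 0.35), 5 with PNA-21 (median 0.31) and 0 with PNA-10b (median 0.15). POLD1, the catalytic subunit of the lagging strand polymerase (ENSG00000062822, chr19:50384204-50418016, plus strand), had 51.7, 49.6 and 47.2 CPM in PNA-10b+21, 48.4, 47.3 and 46.5 CPM in PNA-21, 37.9, 41.02 and 38.2 CPM in PNA-10b and 36.5, 37.5 and 33.98 CPM in control. Its PNA-21 and PNA-10b+21 libraries were all at or above 46.5 CPM, and PNA-10b lay just above control. The change was 0.46 ± 0.06 in PNA-10b+21 (adjusted p = 1.12e-05), 0.39 ± 0.06 with PNA-21 (6.16e-05) and 0.12 ± 0.06 with PNA-10b (0.305, not passed). POLE, the catalytic subunit of the leading strand polymerase, was 0.39 ± 0.06 in PNA-10b+21, 0.27 ± 0.06 with PNA-21 and 0.18 ± 0.06 with PNA-10b, and POLE2, its second subunit, 0.35 ± 0.12 in PNA-10b+21, 0.38 ± 0.12 with PNA-21 and 0.32 ± 0.12 with PNA-10b. POLA1, the catalytic subunit that works with primase, was 0.25 ± 0.07 in PNA-10b+21, 0.20 ± 0.07 with PNA-21 and 0.07 ± 0.07 with PNA-10b, and POLA2, the subunit that binds it, 0.35 ± 0.11 in PNA-10b+21, 0.34 ± 0.11 with PNA-21 and 0.20 ± 0.11 with PNA-10b. These 4 passed in PNA-10b+21 and PNA-21 and not in PNA-10b, where POLE alone of them passed under some alternatives, with no filter on low counts and without PNA-10b+21 replicate 3. The calls of POLE in PNA-10b+21 and PNA-21 held under every alternative run, and the other 3 did not. In both comparisons POLA2 was lost with DESeq2 (adjusted p = 0.0866 in PNA-10b+21 and 0.0937 in PNA-21), with no filter and without control replicate 1 or 3, and also without PNA-10b+21 replicate 1 or 3 in the first and PNA-21 replicate 1 or 2 in the second. POLE2 was lost in both without control replicate 1 or 3 and without replicate 1 of the treated group, and in PNA-10b+21 with DESeq2. POLA1 was lost in PNA-10b+21 without control replicate 1 or PNA-10b+21 replicate 1 or 2, and in PNA-21 without control replicate 1 or 3 or PNA-21 replicate 1 or 3.

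PRIM1, the catalytic subunit of primase, which lays down the RNA primers, passed in no comparison. It had 11.5, 10.3 and 10.4 CPM in PNA-10b+21, 11.6, 8.60 and 11.6 CPM in PNA-21, 8.91, 9.78 and 10.2 CPM in PNA-10b and 10.1, 9.55 and 8.72 CPM in control. PNA-21 replicate 2 was the lowest of the 12 libraries, and PNA-21 replicate 1 the highest, and the SE was wide. The change was 0.18 ± 0.12 in PNA-10b+21 (adjusted p = 0.287), 0.17 ± 0.12 with PNA-21 (0.291) and 0.03 ± 0.12 with PNA-10b (0.936). PRIM1 had 108 to 220 counts a library, and it shares 33 exon bases with NACA, a gene of 5735 counts at the median, on the same strand.

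In the group of clamp, loader and lagging strand genes, 7 of 8 rose in PNA-10b+21 (median 0.26), 7 with PNA-21 (median 0.22) and 1 with PNA-10b (median 0.12). RFC3, a small subunit of the loader that opens the PCNA clamp (ENSG00000133119, chr13:33818049-33966558, plus strand), had 47.1, 44.2 and 44.8 CPM in PNA-10b+21, 49.8, 53.5 and 48.9 CPM in PNA-21, 36.1, 41.6 and 39.7 CPM in PNA-10b and 32.2, 34.4 and 28.6 CPM in control. Every treated library was above the controls, and PNA-21 was above PNA-10b+21 in all 3 libraries. The change was 0.51 ± 0.07 in PNA-10b+21 (adjusted p = 2.08e-05), 0.67 ± 0.07 with PNA-21 (8.08e-07), the largest of the 41 there, and 0.30 ± 0.07 with PNA-10b (0.0152). The call in PNA-10b was lost without control replicate 1 or 3 or PNA-10b replicate 2.

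RPA2, a subunit of the protein that coats single-stranded DNA, was the one replication gene whose treated groups all overlapped control. It had 76.8, 76.8 and 72.8 CPM in PNA-10b+21, 73.4, 69.9 and 73.4 CPM in PNA-21, 70.6, 71.8 and 66.3 CPM in PNA-10b and 70.2, 71.4 and 75.1 CPM in control. Its change was 0.06 ± 0.05 in PNA-10b+21 (adjusted p = 0.398), 0.00 ± 0.05 with PNA-21 (0.983) and -0.05 ± 0.05 with PNA-10b (0.636). With 931 to 1389 counts a library, RPA2 was not among the sparse genes. The other loader subunits moved less than RFC3 in PNA-21: RFC2 by 0.20 ± 0.05, RFC5 by 0.28 ± 0.06 and RFC4 by 0.30 ± 0.07. Within each library, RFC3 was divided by the geometric mean of RFC2, RFC4 and RFC5. The ratio was 0.751, 0.742 and 0.803 in PNA-10b+21 and 0.871, 0.946 and 0.855 in PNA-21. It was 0.674, 0.759 and 0.772 in PNA-10b and 0.687, 0.685 and 0.632 in control. That ratio was chosen after the values were seen and is given without a test; its PNA-21 libraries lay above all others. PCNA, the clamp, was 0.22 ± 0.06 in PNA-10b+21, 0.20 ± 0.06 with PNA-21 and 0.06 ± 0.06 with PNA-10b. FEN1, which trims Okazaki fragments, was 0.27 ± 0.06 in PNA-10b+21, 0.19 ± 0.06 with PNA-21 and 0.12 ± 0.06 with PNA-10b, and LIG1, which seals them, 0.25 ± 0.07 in PNA-10b+21, 0.23 ± 0.07 with PNA-21 and 0.11 ± 0.07 with PNA-10b; these 3 passed in PNA-10b+21 and PNA-21 and not in PNA-10b. In PNA-21 all 3 calls were lost without PNA-21 replicate 1, those of PCNA and FEN1 also without control replicate 3 and that of FEN1 without control replicate 1. In PNA-10b+21 the call of LIG1 was lost without PNA-10b+21 replicate 1.

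**Figure D3:**
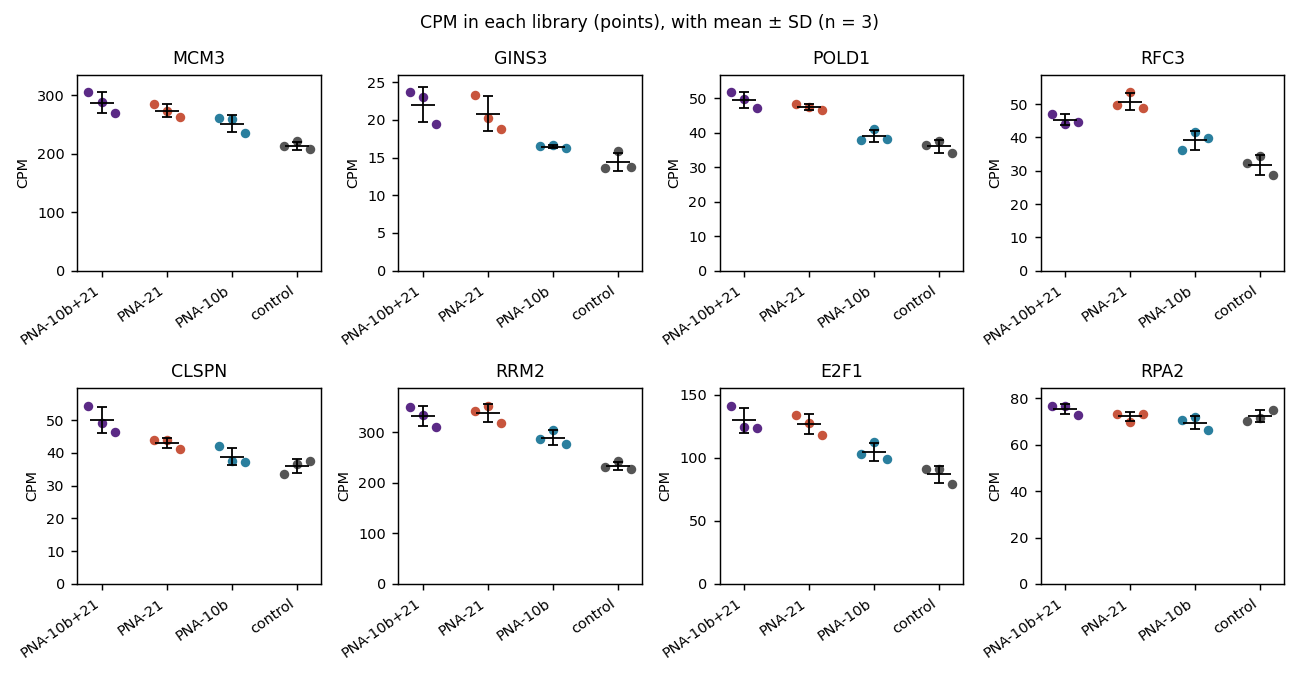
CPM of 8 replication genes in each library (points), with mean and SD (bars, n = 3), by group; every vertical axis starts at 0. RFC3 is highest in PNA-21, where its 3 libraries have 48.9 to 53.5 CPM, and RPA2 lies between 66.3 and 76.8 CPM in all 12 libraries.

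Fork protection was covered by a pair of genes. CLSPN codes for claspin, which links the fork to the checkpoint kinase, and had 54.4, 49.2 and 46.3 CPM in PNA-10b+21, 43.9, 43.8 and 41.2 CPM in PNA-21, 41.95, 37.4 and 37.2 CPM in PNA-10b and 33.5, 36.7 and 37.5 CPM in control. It was the one gene of the 41 with all 3 PNA-10b+21 libraries above all 3 PNA-21 libraries. The change against control was 0.48 ± 0.07 in PNA-10b+21 (adjusted p = 3.27e-05), 0.26 ± 0.07 with PNA-21 (0.00843, lost without control replicate 1) and 0.11 ± 0.07 with PNA-10b (0.41, not passed). TIPIN, a partner of claspin at the fork, had 24.1, 22.4 and 19.7 CPM in PNA-10b+21, 20.5, 20.97 and 19.9 CPM in PNA-21, 17.8, 20.7 and 17.6 CPM in PNA-10b and 17.6, 19.7 and 16.9 CPM in control. Control replicate 2 reached the lowest PNA-10b+21 library, so those groups overlapped. TIPIN rose in PNA-10b+21 by 0.28 ± 0.09 (0.0237), a call lost without control replicate 1 or 3 or PNA-10b+21 replicate 1 or 2. Its change was 0.17 ± 0.09 with PNA-21 (0.17) and 0.05 ± 0.09 with PNA-10b (0.84), neither past the threshold.

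Nucleotide synthesis genes rose in 4 of 4 cases in PNA-10b+21, in 3 of 4 with PNA-21 and in 2 of 4 with PNA-10b. RRM2, the small subunit of ribonucleotide reductase, sets the supply of deoxynucleotides in S phase (ENSG00000171848, chr2:10120698-10131419, plus strand). It had 349.9, 334 and 310.4 CPM in PNA-10b+21, 343, 353 and 318 CPM in PNA-21, 287, 305 and 276 CPM in PNA-10b and 232, 243 and 228 CPM in control. The 3 PNA-10b libraries lay between control and the other 2 groups without touching either. The change was 0.50 ± 0.06 in PNA-10b+21 (adjusted p = 1.45e-06), 0.53 ± 0.06 with PNA-21 (8.66e-07) and 0.30 ± 0.06 with PNA-10b (0.00228). It was the only one of the 41 past the threshold in PNA-10b under every alternative run.

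RRM1, the large subunit of the same enzyme, was 0.38 ± 0.06 in PNA-10b+21, 0.30 ± 0.06 with PNA-21 and 0.15 ± 0.06 with PNA-10b, and passed in the first 2. The ratio of RRM2 to RRM1 counts was 1.23, 1.15 and 1.20 in PNA-10b+21, 1.26, 1.34 and 1.26 in PNA-21, 1.15, 1.26 and 1.26 in PNA-10b, and 1.11, 1.12 and 1.07 in control. All treated libraries exceeded the controls in that ratio, which was also chosen after the values were seen. An exact permutation test of 3 against 3 libraries cannot give a p under 0.1. Other ratios computed, of RPA2, GINS3, CCNE1, CDT1 and PRIM1 to partner genes, overlapped control in some or all treated groups. TYMS, which makes thymidylate, had 45.7, 44.5 and 39.9 CPM in PNA-10b+21, 43.6, 38.2 and 40.1 CPM in PNA-21, 40.6, 42.8 and 36.7 CPM in PNA-10b and 37.2, 35.6 and 37.2 CPM in control. PNA-10b overlapped control at TYMS, and the other 2 groups lay above it. TYMS rose in PNA-10b+21 by 0.24 ± 0.07 (adjusted p = 0.015), lost without control replicate 2 or PNA-10b+21 replicate 1 or 2, and was 0.15 ± 0.07 with PNA-21 (0.122) and 0.13 ± 0.07 with PNA-10b (0.327), neither past the threshold. TYMS shares 967 exon bases with ENOSF1 on the other strand, which had 1494 counts at the median against 616 for TYMS, so its counts are less certain. TK1, the salvage kinase of thymidine, rose in all 3 groups by near the same amount, 0.26 ± 0.06 in PNA-10b+21, 0.27 ± 0.06 with PNA-21 and 0.24 ± 0.06 with PNA-10b, the last lost without control replicate 3 or PNA-10b replicate 2.

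The S phase regulators and UHRF1 rose in 5 of 5 cases in PNA-10b+21 (median 0.44), in 4 of 5 with PNA-21 (median 0.39) and in 1 of 5 with PNA-10b (median 0.25). E2F1, which drives transcription of S phase genes and has 2 E2F words in its own promoter above (ENSG00000101412, chr20:33675683-33686404, minus strand), had 141, 124 and 124 CPM in PNA-10b+21, 134, 128 and 118 CPM in PNA-21, 103, 112 and 98.7 CPM in PNA-10b and 90.8, 90.98 and 79.3 CPM in control. PNA-21 and PNA-10b+21 lay above PNA-10b, and PNA-10b above control, in every library. The change was 0.57 ± 0.07 in PNA-10b+21 (adjusted p = 3.37e-06), 0.54 ± 0.07 with PNA-21 (7.81e-06) and 0.26 ± 0.07 with PNA-10b (0.0251), the last lost without control replicate 1 or 3 or PNA-10b replicate 2. E2F2, a second activating member of the family, was 0.59 ± 0.09 in PNA-10b+21, 0.52 ± 0.09 with PNA-21 and 0.22 ± 0.09 with PNA-10b, and passed in the first 2. Its libraries had 29.9, 24.8 and 22.9 CPM in PNA-10b+21 against 16.6, 18.3 and 16.5 CPM in control, with no overlap.

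The E-type cyclins activate CDK2 at the start of S phase. CCNE1 was 0.43 ± 0.11 in PNA-10b+21, 0.39 ± 0.11 with PNA-21 and 0.08 ± 0.11 with PNA-10b, and passed in the first 2, each call lost without replicate 1 of the treated group. CCNE2 had 14.2, 14.3 and 13.2 CPM in PNA-10b+21, 14.05, 11.7 and 11.04 CPM in PNA-21, 11.96, 12.8 and 13.2 CPM in PNA-10b and 8.71, 10.96 and 11.1 CPM in control. Control replicate 1 was the lowest library, and PNA-21 overlapped control while the other 2 treated groups did not. CCNE2 rose in PNA-10b+21 by 0.44 ± 0.11 (adjusted p = 0.00503), and was 0.26 ± 0.11 with PNA-21 (0.0881, past the threshold without PNA-21 replicate 3) and 0.31 ± 0.11 with PNA-10b (0.109). CCNE2 shares 1629 exon bases with INTS8 on the other strand, with 797 counts at the median against 205, and its values are uncertain for that reason. UHRF1, which carries DNA methylation over to the new strand, was 0.33 ± 0.08 in PNA-10b+21, 0.31 ± 0.08 with PNA-21 and 0.25 ± 0.08 with PNA-10b, and passed in the first 2. Those calls were lost without PNA-10b+21 replicate 1 (adjusted p = 0.0515) for PNA-10b+21 and without control replicate 3 (0.059) for PNA-21, and in PNA-10b it passed with no filter on low counts (0.00193) and without control replicate 2 (0.00736).

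Set against PNA-10b, the combined arm was higher for 13 of the 41 and lower for 0, where 4.61% of all genes tested rose. The 13 were MCM3, MCM7, MCM10, CDC6, GINS3, POLD1, POLE, RRM1, RRM2, CCNE1, E2F1, E2F2 and CLSPN. The median log2 difference was 0.18. Differences were positive for all 41, where 50.6% of all genes tested were positive. For 25, every PNA-10b+21 library lay above every PNA-10b library, where 14.9% of all genes did. POLD1 differed by 0.34 ± 0.06 (adjusted p = 0.000803), CLSPN by 0.37 ± 0.07 (0.00167), GINS3 by 0.42 ± 0.10 (0.00729) and E2F1 by 0.31 ± 0.07 (0.00569). GINS1 and TK1, which rose in PNA-10b, differed by 0.04 ± 0.09 (0.826) and 0.02 ± 0.06 (0.9). The count rested on single libraries: it was 2 without PNA-10b+21 replicate 1, 7 without replicate 2, 20 without replicate 3 and 6 without PNA-10b replicate 3.

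PNA-21 was higher than PNA-10b for 7 of the 41, MCM10, GINS3, RFC3, POLD1, RRM2, E2F1 and E2F2, and lower for 0, where 2.91% of all genes tested rose. The median difference was 0.12, and 18 had every PNA-21 library above every PNA-10b library, where 13.3% of all genes did. Among these 7, RFC3 differed most, by 0.37 ± 0.07 (adjusted p = 0.00202), then GINS3 by 0.34 ± 0.10 (0.0366) and E2F2 by 0.30 ± 0.09 (0.0402). CCNE1, at 0.31 ± 0.11 (0.0807), did not pass. The count was 2 without PNA-21 replicate 1 and without PNA-10b replicate 1 or 3, and it was 4 without PNA-21 replicate 2 or with DESeq2.

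Between the combined arm and PNA-21, edgeR called 0 of the 41 and 0.0% of all genes, and DESeq2 called 0 of the 41 and 27 genes. At an unadjusted p under 0.05 there were 3 of the 41 and 1354 of all genes. The median difference was 0.06 and 36 of the 41 were positive, where 53.9% of all genes tested were. CLSPN alone had every PNA-10b+21 library above every PNA-21 library, 0.22 ± 0.07 (adjusted p = 0.305), where 6.19% of all genes did. RFC3 alone had them all below, -0.16 ± 0.07 (0.495), and the share of all genes that did so was not counted. A p above the threshold does not show that these arms acted alike.

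The interaction asks whether the combined change equals the sum of the single changes on the log2 scale. It is the difference of PNA-10b+21 from PNA-10b minus that of PNA-21 from control. The interaction was negative for 36 of the 41, with a median of -0.10, where 52.1% of all genes tested were positive. The first difference has the carrier in both arms, with a larger total sgPNA dose in PNA-10b+21, and the second has the carrier in PNA-21 alone. The carrier and the sgPNAs therefore cannot be told apart in the interaction either. RFC3 and RRM2 passed, both lower, where 1.64% of all genes passed as lower. RFC3 was 0.21 ± 0.07 higher in PNA-10b+21 than in PNA-10b and 0.67 ± 0.07 higher in PNA-21 than in control, an interaction of -0.46 ± 0.10 (adjusted p = 0.0181). RRM2 was 0.20 ± 0.06 and 0.53 ± 0.06 higher in the same pair of comparisons, an interaction of -0.33 ± 0.08 (0.0296). GINS1, at -0.44 ± 0.13 (0.067), missed the threshold. Both calls were lost without control replicate 1 or 3 and without replicate 2 of any treated group, when adjusted p was 0.0554 to 0.0779 for RFC3 and 0.0670 to 0.116 for RRM2. That of RRM2 was also lost without PNA-21 replicate 1 (0.0518) and without PNA-10b+21 replicate 3 (0.0689).

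The replication genes also moved together among libraries of 1 group. PNA-10b+21 replicate 1 was the highest of its group for 35 of the 41 and replicate 3 the lowest for 38. In PNA-21, replicate 1 was highest for 27 and replicate 3 lowest for 29. In PNA-10b, replicate 2 was highest for 23 and replicate 3 lowest for 29, and in control, replicate 2 was highest for 27 and replicate 3 lowest for 31. The matching shares over all genes tested were not counted. The median coefficient of variation over the 41 genes was 6.20% in PNA-10b+21, 5.58% in PNA-21, 5.06% in PNA-10b and 5.40% in control. The largest were those of CDT1 in PNA-10b+21 (17.9%), PRIM1 in PNA-21 (16.4%) and ORC6 in control (14.5%).

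Levels between genes were compared per length, as CPM per kb of exon in GENCODE release 29. Length was every exon base of any annotated transcript, so the order between genes depends on the annotation as well as on abundance. PCNA was the most abundant, at 80.6 ± 2.81 in PNA-10b+21 against 69.2 ± 3.48 in control (SD, n = 3). MCM3 followed at 78.9 ± 4.82 against 58.6 ± 1.86, and RRM1 at 66.5 ± 4.10 against 51.1 ± 1.05. In control, MCM3 and MCM6 (45.2 ± 1.25) stood well over MCM2 (17.00 ± 0.772) and MCM5 (16.98 ± 1.06) per length. MCM2 and MCM5 did not differ beyond their spread on that scale. The length used was 3650 bases for MCM3, 4118 for MCM6, 4902 for MCM2 and 7338 for MCM5. Before division by length, their control means were 214, 186, 83.4 and 125 CPM in that order. POLA2 shares 2012 of its 5726 exon bases with AP000944.2 on the same strand, so its level is uncertain. It was the least abundant per length in both groups, at 1.49 ± 0.158 in PNA-10b+21 against 1.17 ± 0.0613 in control. GINS4, at 3.07 ± 0.290 in PNA-10b+21 against 2.52 ± 0.160 in control, and CCNE2, at 3.16 ± 0.141 against 2.34 ± 0.307, were next and did not differ from each other beyond their spread. RFC3, at 15.8 ± 0.537 against 11.04 ± 1.02, was the lowest loader subunit in control together with RFC5 (11.9 ± 0.615). RPA2, without a change past the threshold, was at 37.4 ± 1.13 against 35.8 ± 1.28.

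**Figure D4:**
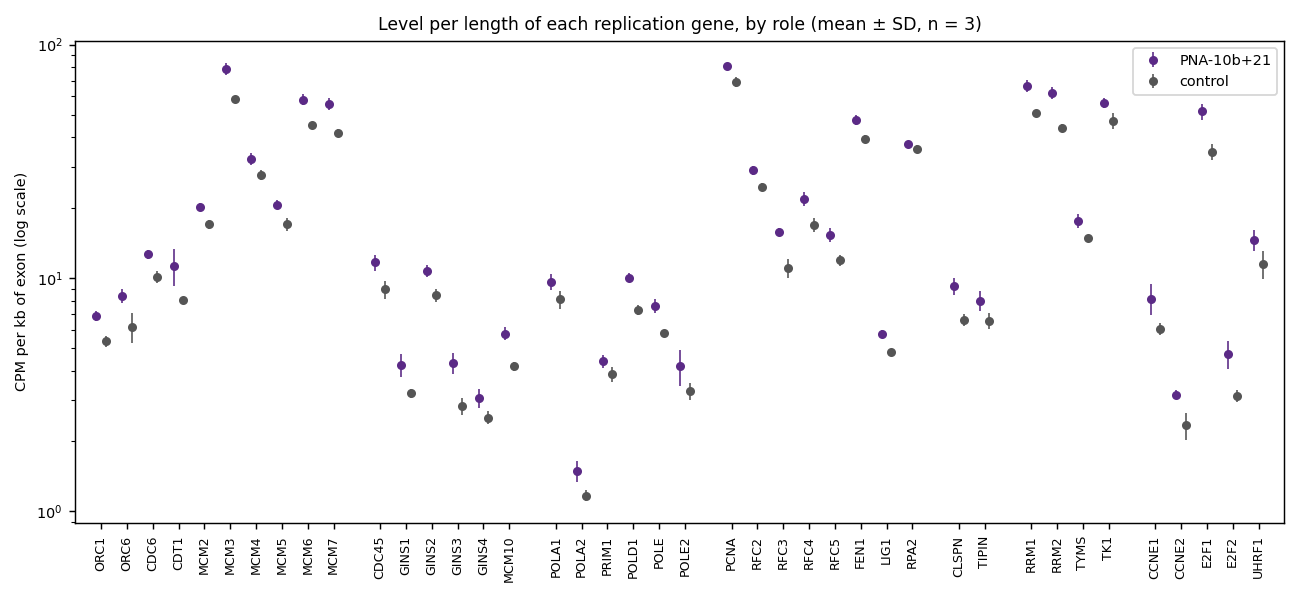
Mean level per length (CPM per kb of exon, log axis) with SD (bars, n = 3) of the 41 genes, by role, in PNA-10b+21 and control. Levels run from POLA2, 1.49 in PNA-10b+21 and 1.17 in control, to PCNA, 80.6 in PNA-10b+21 and 69.2 in control.

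Other genes of DNA replication and the cell cycle were counted from 7 lists of 155 genes, of which 149 were tested. Of all genes tested, 13.6% rose in PNA-10b+21, 15.2% with PNA-21 and 2.75% with PNA-10b, the shares to set beside the counts of each list. Of 28 further replication genes, 12 rose in PNA-10b+21, 13 with PNA-21 and 1 with PNA-10b, and none fell. Without control replicate 1 or 3 the count in PNA-21 was 8 and 7. DBF4, which activates the kinase that fires origins, was 0.59 ± 0.08 in PNA-10b+21, 0.68 ± 0.08 with PNA-21 and 0.44 ± 0.09 with PNA-10b, the one of the 28 that rose in PNA-10b. DNA2, a nuclease of Okazaki fragments, was 0.30 ± 0.08 in PNA-10b+21, 0.43 ± 0.08 with PNA-21 and 0.22 ± 0.08 with PNA-10b. Of 26 other nucleotide enzymes, 15 rose in PNA-10b+21, 13 with PNA-21 and 0 with PNA-10b. The 15 became 9 without control replicate 3 or PNA-10b+21 replicate 1 or 2. CTPS1, which makes CTP, was 0.44 ± 0.06 in PNA-10b+21, 0.37 ± 0.06 with PNA-21 and 0.17 ± 0.06 with PNA-10b, and the purine enzymes ATIC and GMPS were 0.38 ± 0.05 and 0.32 ± 0.05 in PNA-10b+21.

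Of 12 chromatin assembly genes, 10 rose in PNA-10b+21, 9 with PNA-21 and 2 with PNA-10b. ASF1B, a histone chaperone, was 0.49 ± 0.07 in PNA-10b+21, 0.46 ± 0.07 with PNA-21 and 0.26 ± 0.07 with PNA-10b. Of 20 S phase checkpoint and repair genes, 13 rose in PNA-10b+21, 14 with PNA-21 and 4 with PNA-10b, and the 14 became 9 without control replicate 1 or 3. RAD54L, of homologous recombination, was 0.66 ± 0.08 in PNA-10b+21, 0.59 ± 0.08 with PNA-21 and 0.25 ± 0.08 with PNA-10b. The counts in PNA-10b of these lists rested on single libraries: without control replicate 1, control replicate 3 or PNA-10b replicate 2, that of chromatin assembly was 0 (and 1 without PNA-10b replicate 3), and that of checkpoint and repair was 1, 0 and 0.

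Of 27 tested G1/S control genes, 14 rose and 1 fell in PNA-10b+21, 15 rose with PNA-21 and 5 rose with PNA-10b, the last becoming 1, 1 and 0 without control replicate 1, control replicate 3 or PNA-10b replicate 2. Cyclin D1, CCND1, had 599, 562 and 588 CPM in PNA-10b+21, 609, 622 and 533 CPM in PNA-21, 559, 618 and 581 CPM in PNA-10b and 479, 516 and 483 CPM in control. Its change was 0.24 ± 0.06 in PNA-10b+21, 0.25 ± 0.06 with PNA-21 and 0.25 ± 0.06 with PNA-10b, past the threshold in all 3. CDKN1A, which codes for the CDK inhibitor p21, rose beside the replication genes in PNA-10b+21 by 0.23 ± 0.05 (adjusted p = 0.00219) and in PNA-21 by 0.19 ± 0.05 (0.0074), and was -0.03 ± 0.05 in PNA-10b (0.781). 

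Of 19 tested G2 and M phase genes, 18 rose in PNA-10b+21 (median 0.41), 17 with PNA-21 (median 0.31) and 16 with PNA-10b (median 0.28). The 16 became 9, 8 and 3 without control replicate 1, control replicate 3 or PNA-10b replicate 2. AURKB, a mitotic kinase, was 0.62 ± 0.08 in PNA-10b+21, 0.62 ± 0.08 with PNA-21 and 0.38 ± 0.08 with PNA-10b, and MKI67, the gene of the proliferation antigen Ki-67, 0.46 ± 0.06 in PNA-10b+21, 0.29 ± 0.06 with PNA-21 and 0.27 ± 0.06 with PNA-10b. Of 17 DNA polymerases of repair, bypass and mitochondria and their partners, 4 rose and 1 fell in PNA-10b+21, 2 rose with PNA-21 and 0 with PNA-10b, with medians of 0.04 in PNA-10b+21, -0.00 with PNA-21 and 0.02 with PNA-10b. The shares that rose in PNA-21 and PNA-10b were below those over all genes. POLQ, of end joining, was 0.43 ± 0.07 in PNA-10b+21, 0.35 ± 0.07 with PNA-21 and 0.24 ± 0.07 with PNA-10b, and POLG, of mitochondria, 0.26 ± 0.05 in PNA-10b+21, 0.13 ± 0.05 with PNA-21 and 0.08 ± 0.05 with PNA-10b.

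**Figure D5:**
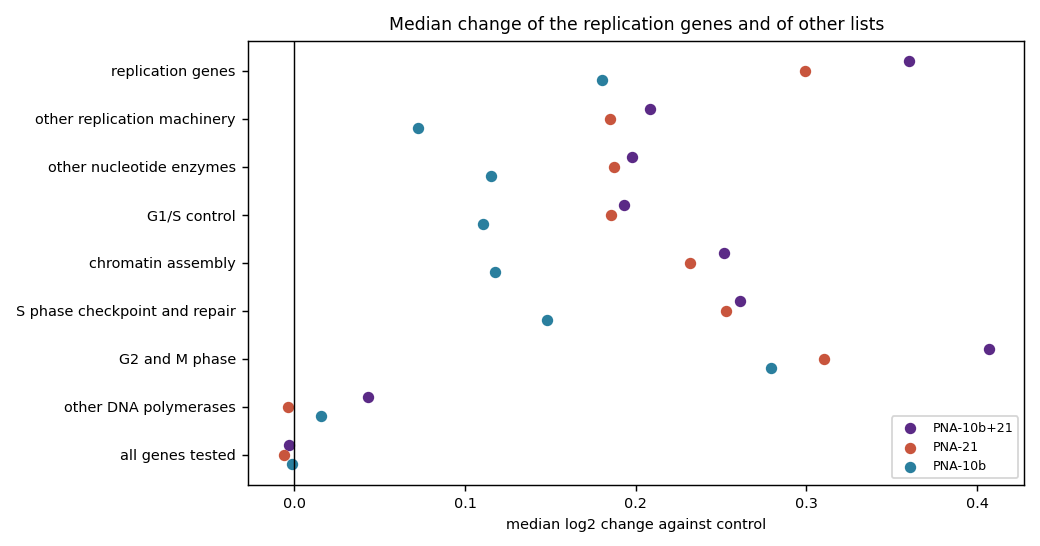
Median log2 change against control of the 41 replication genes, of 7 other lists and of all 15715 genes tested (rows), in PNA-10b+21, PNA-21 and PNA-10b. In the order of the legend, the replication genes lie at 0.36, 0.30 and 0.18 and the G2 and M phase genes at 0.41, 0.31 and 0.28, and all genes lie near 0.

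The target of sgPNA-21 is miR-21-5p, whose mature sequence in RefSeq (GRCh38.p14, chr17:59841273-59841294, plus strand) is shown with its seed, bases 2 to 8, in capitals beside the matching sites, ATAAGCT, in 3′ UTRs of replication genes. All sites found in the longest annotated UTR of each gene in GENCODE release 29 are shown, with capitals for the match. That UTR was taken from any transcript with a coding part, whatever its type. Some may therefore hold bases that are coding in other transcripts. The UTR used for POLE had 7049 bases, with matches at 624 and 6122.
miR-21-5p: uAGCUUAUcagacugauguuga
GINS1: cctttttctaATAAGCTgtatctgtaa
MCM10: tgttaagcccATAAGCTttgcctgctt
PRIM1: tgttccgaccATAAGCTtcatctgccg
POLE, first: caggagttcaATAAGCTgacggacgac
POLE, second: aaccaggtgaATAAGCTgaaccgagac
RPA2: gaagttacaaATAAGCTtgttacaaca
A match was in 5 of the 41 genes (12.2%), against 1338 of 12274 tested genes with a UTR (10.9%), with median UTR lengths of 1052 and 1652 bases. GINS1, MCM10 and POLE rose in PNA-21, by 0.48 ± 0.09, 0.38 ± 0.08 and 0.27 ± 0.06. PRIM1 and RPA2, which passed in no comparison against control, carry a match as well, and the other 32 genes that rose in PNA-21 carry none. RFC3, with the largest change in PNA-21, is among those without a match.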

How the data were processed

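The 12 libraries, 3 a group, were grouped by their labels, and RNA libraries were stranded mRNA libraries per the labels' protocols. The deposited table holds raw, unnormalized counts for each Ensembl gene. The submitters' processing notes name HTSeq 0.11.0, HISAT2 2.1.0, SAMtools 1.7 and the build hg38. The annotation release and the strand setting were not given in the sources used here. Where exons of 18 of the 41 genes overlap another annotated gene, reads may have been lost or shared. The longest overlaps on the same strand were 2012 bases of POLA2 with AP000944.2 and 1077 bases of RRM2 with AC007240.1. The latter has no row among the deposited counts.

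From the counts, genes were filtered with filterByExpr (minimum count 10), which kept 15715 genes and 99.8% of counts, and scaled by TMM. All 12 libraries entered 1 quasi-likelihood fit in edgeR 4.0.16 (R 4.3.3, limma 3.58.1) with a mean per group, and p-values were adjusted over all 15715 genes. Same-group libraries differed beyond sampling noise. Replication genes held 78 counts or more per library, and intervals reflect counting noise as well as the spread between libraries, more so for sparse genes. Coordinates, exon lengths and 3′ UTRs came from GENCODE release 29, and promoters and miR-21-5p from RefSeq (GRCh38.p14). Motifs and seed matches were found as exact words.

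The 41 genes, their roles and the other lists were chosen with earlier results of these data known, so counts over them are descriptions. Values in every library are given for the gene with the largest and smallest change of each role in PNA-21 and for the 3 with the smallest p in each other comparison with a call; other members are given by change or range, except MCM6, CDT1 and E2F2, whose libraries were chosen after their values were seen. The genes named from each other list come from the 3 with the smallest p in PNA-21, with CCND1, CDKN1A, CDKN2A, CDKN2B and MKI67. Alternatives were RLE size factors, no filter, DESeq2 1.42.0, only the groups compared, a replicate block and each of the 12 libraries left out. For the other lists, DESeq2 and the left-out libraries were added after seeing the data.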

Additional observations from a re-analysis of the deposited data

Results flagged for a closer look

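For RFC3 and RRM2, the difference of PNA-10b+21 from PNA-10b was smaller than that of PNA-21 from control. The control cells had no carrier, so the carrier and the sgPNAs cannot be told apart in it. RFC3 was 0.21 ± 0.07 higher (log2, SE) in PNA-10b+21 than in PNA-10b, and 0.67 ± 0.07 higher in PNA-21 than in control. Its interaction was -0.46 ± 0.10, with an adjusted p of 0.0181 in edgeR's quasi-likelihood test. RRM2 was 0.20 ± 0.06 higher in PNA-10b+21 than in PNA-10b, and 0.53 ± 0.06 higher in PNA-21 than in control. Its interaction was -0.33 ± 0.08, with an adjusted p of 0.0296. With 1 of the 12 libraries left out, the call held in 7 of 12 fits for RFC3 and in 5 of 12 for RRM2. No cause was tested.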

How the results depend on the processing

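The counts of replication genes past the threshold were 35 in PNA-21 and 39 in PNA-10b+21, and stayed within 1.5 times of these under every alternative run. Leaving out 1 library gave 24 to 35 for PNA-21 and 30 to 39 for PNA-10b+21. Of these genes, 22 of 35 and 30 of 39 passed under every alternative. The count in PNA-10b, 7, was 12 with no filter on low counts and 1 to 9 with 1 library left out. For PNA-10b+21 against PNA-10b, 13, it was 2 to 20 with 1 library left out. For PNA-21 against PNA-10b, 7, it was 4 with DESeq2 and 2 to 8 with 1 library left out. For the interaction, 2, it was 4 with no filter and 0 to 3 with 1 library left out. For PNA-10b+21 against PNA-21 it was 0 under every alternative, while over all genes 0 became 332 with no filter and 48 with only the groups compared. Checkpoint and repair genes in PNA-10b, 4, were 2 with DESeq2. The cause of these moves was not tested.

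Deviations of same-numbered libraries correlated at -0.23 to 0.33, so replicate numbers in the labels did not pair the samples in general. Among the replication genes, replicate 3 was most often the lowest library in every group. It was lowest for 38 genes in PNA-10b+21, 29 in PNA-21, 29 in PNA-10b and 31 in control. This was not particular to them. Averages of the nucleotide enzyme, chromatin assembly, checkpoint and repair, and G2 and M phase lists were also lowest in replicate 3 of every group. Those of the other lists were not. The share over all genes tested was not counted. Whether replicate number had a shared effect on the replication genes or these lists was not tested. With a replicate block the count was 11 in PNA-10b (the 4 added being MCM5, MCM7, POLE and UHRF1), 35 in PNA-21, 39 in PNA-10b+21, 16 for PNA-10b+21 against PNA-10b, 0 for PNA-10b+21 against PNA-21, 8 for PNA-21 against PNA-10b and 2 for the interaction.

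The median change of the 41 genes ran from 0.31 to 0.41 for PNA-10b+21, 0.27 to 0.31 for PNA-21 and 0.15 to 0.20 for PNA-10b. Signs turned only for genes short of the threshold, with 1 library left out. In PNA-10b, POLA1 became -0.00092 without control replicate 1, PRIM1 -0.021 without control replicate 3 and -0.016 without PNA-10b replicate 3, and TIPIN -0.035 without PNA-10b replicate 2. With 1 library left out, PRIM1 in PNA-10b ran up to 0.078, and RPA2 in PNA-21 lay between -0.021 and 0.027. The SE of these genes was 0.05 to 0.12, and changes under it were not detectable at this depth and number of libraries. Changes well above their SE could also miss the threshold, as did 0.18 for MCM7 and 0.32 for POLE2 in PNA-10b.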
